A study of Homo sapiens with 14 samples.

Results

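The collagen-modifying enzymes followed here are 8 genes: the prolyl 4-hydroxylase subunits P4HA1, P4HA2 and P4HB, the lysyl hydroxylases PLOD1, PLOD2 and PLOD3, and the lysyl oxidases LOX and LOXL2. They were taken by gene symbol from the 19775 genes with a probe set of 1 symbol, and 19 probe sets carry their names. The group was selected on its function and on measured values, since the ratios of miR-124 over control of some of its genes were already known from these arrays. Levels and ratios between the transfections are therefore given for these genes as a description, with no test. All 8 lay above the filter on low values (a mean log2 level of 6.19) that leaves 13128 genes for the fits across genes.

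HepG2, a human line grown from a liver tumour, received either miR-124 or a negative control. RNA was taken 4, 8, 16, 24, 32, 72 and 120 h after transfection, with 1 one-colour array for each transfection and time and 14 arrays in all. What the negative control was, and how much of either was given, is not in the labels, which also do not say that the arrays came from separate cultures. There are no replicates of a time, so standard errors and p-values measure only the spread between arrays of different times. That spread may be technical, and it also holds any real change of the miR-124 effect between times.

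Collagen chains are modified inside the endoplasmic reticulum before they leave the cell. Prolyl 4-hydroxylase, made of a catalytic alpha subunit (P4HA1 or P4HA2) and the disulfide isomerase P4HB, hydroxylates prolines and so lets the collagen helix hold at body temperature. The PLOD enzymes hydroxylate lysines, and outside the cell the copper enzymes LOX and LOXL2 oxidise lysines and hydroxylysines, which then form the cross-links between collagen molecules. LOX, PLOD2 and P4HA1 are known as genes that low oxygen induces through the transcription factor HIF, which binds a short DNA core in its target genes. miR-124 is a microRNA abundant in neurons.

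The promoters of these 3 genes are shown because the same genes had the lowest ratios to control and had higher levels together in the last control array. The stretches are the 250 bases before the RefSeq start on GRCh38.p14, written 5′ to 3′ along the gene, and capitals mark the HIF core ACGTG read on either strand (CACGT where it lies on the other strand).
LOX (chr5:122078260-122078509, minus strand): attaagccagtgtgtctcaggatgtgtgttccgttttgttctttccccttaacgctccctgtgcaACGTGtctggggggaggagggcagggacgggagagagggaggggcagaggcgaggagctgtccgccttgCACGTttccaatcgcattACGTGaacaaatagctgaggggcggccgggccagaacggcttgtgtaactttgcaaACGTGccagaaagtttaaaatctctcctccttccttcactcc
PLOD2 (chr3:146161185-146161434, minus strand): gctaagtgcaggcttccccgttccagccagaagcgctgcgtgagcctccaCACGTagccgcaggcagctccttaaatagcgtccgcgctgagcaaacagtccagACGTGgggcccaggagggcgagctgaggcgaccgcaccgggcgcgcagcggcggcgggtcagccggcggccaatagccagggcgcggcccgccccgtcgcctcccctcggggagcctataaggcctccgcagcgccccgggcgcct
P4HA1 (chr10:73096867-73097116, minus strand): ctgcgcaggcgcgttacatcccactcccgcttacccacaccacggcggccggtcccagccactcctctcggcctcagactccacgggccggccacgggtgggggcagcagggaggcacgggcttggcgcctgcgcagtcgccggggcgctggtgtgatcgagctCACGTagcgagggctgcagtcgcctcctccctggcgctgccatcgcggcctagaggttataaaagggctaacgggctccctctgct
The LOX window held 4 copies, beginning 185, 116, 98 and 42 bases before the start. PLOD2 had 2, at 200 and 146 bases, and P4HA1 had 1, at 86 bases. Of 35116 promoter windows of the same length, 18.5% held this core at least once, 7.52% at least 2 times and 0.669% at least 4 times. A CACGTG, read on both strands, counts as 2 in these shares. A window was found for 7 of the 8 genes, with LOXL2 as the one not matched, and the windows of PLOD1, PLOD3, P4HA2 and P4HB had no ACGTG. The P4HA2 window belongs to an inner start of that gene, and each of 2 further LOX windows at inner starts held 1 copy. The other common HIF core, GCGTG, was in the windows of PLOD1 (2 copies), PLOD2 (1) and P4HB (1), against 32.2% of all windows. A match of 5 letters is a description of the sequence and does not show that a factor binds there.

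**Figure D1:**
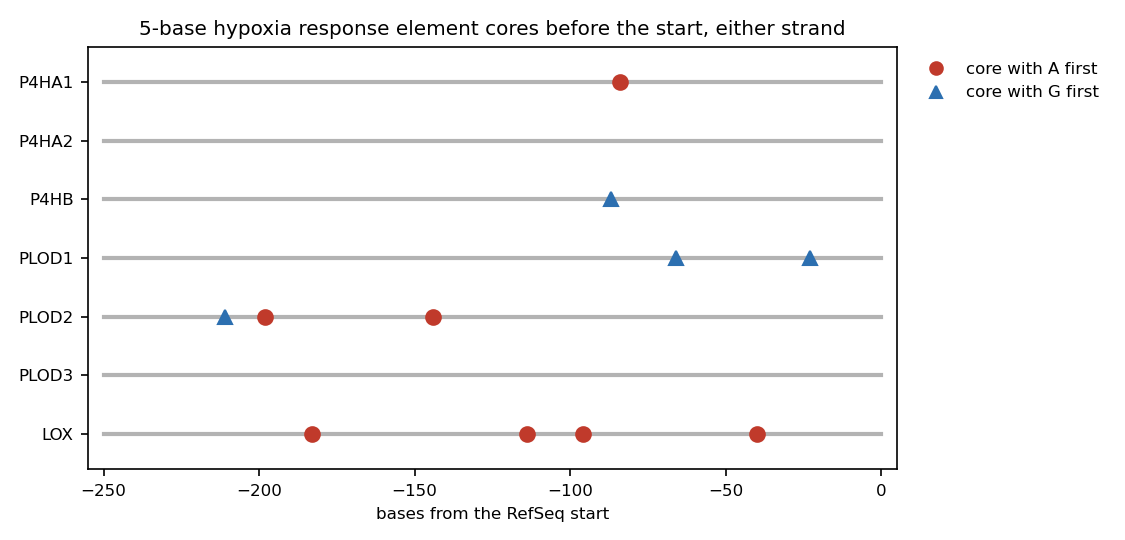
Position of the cores ACGTG (circles, A first) and GCGTG (triangles, G first) on either strand in the 250 bases before the RefSeq start of 7 enzyme genes, with distance from the start in bases on the x axis. LOX has 4 circles, PLOD2 has 2, P4HA1 has 1 and the other 4 genes have none.

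Among the prolyl 4-hydroxylase subunits, the catalytic subunit P4HA1 was lower with miR-124 from 16 h on. Its partner P4HB stayed within 0.40 of control on the log2 scale on the probe set of highest mean, and other P4HB probe sets went further below control, down to −0.76. P4HA1 had log2 levels of 9.40, 9.06, 8.87, 8.03, 7.54, 7.40 and 8.61 with miR-124 at 4, 8, 16, 24, 32, 72 and 120 h. With the negative control it had 9.35, 9.27, 9.42, 9.38, 9.10, 9.54 and 10.62. The transfections were alike at 4 and 8 h and apart from 16 h on, and both had a higher level at 120 h than at 72 h. In linear terms P4HA1 was lower with miR-124 by 1.46-fold (16 h), 2.55-fold (24 h), 2.93-fold (32 h), 4.42-fold (72 h) and 4.03-fold (120 h). Its mean log2 ratio was −1.15 ± 0.17 (limma standard error, n = 3 pairs) in the middle window of 16, 24 and 32 h. It was −2.08 ± 0.21 (n = 2 pairs) in the late window of 72 and 120 h. For every window mean, the standard error comes from 1 spread per gene shared among windows, not from the pairs of that window alone.

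P4HA2, the other catalytic subunit, moved far less. Its log2 levels were 8.85, 8.82, 8.68, 8.66, 8.32, 8.73 and 8.70 with miR-124 and 9.16, 8.89, 9.07, 9.09, 8.90, 8.90 and 9.37 with control, in the same order of times. On the probe set of highest mean, the miR-124 value was the lower of the pair at 7 of 7 times. The mean ratio was −0.47 ± 0.11 in the middle window and −0.42 ± 0.13 in the late window. P4HB, which also works as a general disulfide isomerase, had levels of 12.52, 12.57, 12.48, 12.63, 12.61, 12.41 and 12.57 with miR-124. Its control levels were 12.73, 12.52, 12.68, 12.73, 12.61, 12.81 and 12.61. The ranges of P4HB overlap, and the mean ratio was −0.10 ± 0.09 in the middle and −0.22 ± 0.12 in the late window.

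Among the lysyl hydroxylases, PLOD2 was lower by more at each later time, PLOD3 was lowest at 72 h and PLOD1 was near control throughout. PLOD2 hydroxylates lysines in the ends of the collagen chain, which sets the kind of cross-link formed. It had log2 levels of 11.08, 10.64, 10.23, 9.71, 9.53, 8.91 and 9.80 with miR-124 and 11.03, 10.83, 10.97, 10.88, 10.83, 10.53 and 11.64 with control. From 16 h on, every miR-124 value lay below every control value. The ratio widened at each later time, from 1.15-fold lower (8 h) through 1.67-fold (16 h), 2.25-fold (24 h), 2.47-fold (32 h) and 3.07-fold (72 h) to 3.59-fold (120 h). The mean log2 ratio was −1.07 ± 0.12 in the middle and −1.73 ± 0.14 in the late window.

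PLOD3 both hydroxylates lysines and adds sugars to the product. It had levels of 9.69, 9.94, 9.62, 9.72, 9.51, 8.73 and 9.31 with miR-124 and 10.05, 9.87, 10.09, 9.97, 9.92, 9.99 and 9.90 with control. The 72 h value stood lowest, 2.40-fold below its control, and at 120 h the gene was 1.51-fold lower. Its mean ratio was −0.38 ± 0.13 in the middle and −0.93 ± 0.17 in the late window. PLOD1, the lysyl hydroxylase that acts on the helical part of the chain, had levels of 8.66, 8.73, 8.74, 8.85, 8.90, 8.95 and 9.09 with miR-124. Its control levels were 9.00, 8.73, 9.09, 8.91, 8.65, 8.75 and 9.06. The ranges overlap, with a mean ratio of −0.05 ± 0.12 in the middle and 0.12 ± 0.15 in the late window.

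The lysyl oxidases went opposite ways on the probe sets of highest mean. LOX, whose product starts the cross-linking of collagen and elastin, had log2 levels of 9.85, 9.28, 7.94, 6.19, 6.12, 5.38 and 8.39 with miR-124. With control it had 9.94, 9.68, 9.49, 9.27, 9.14, 9.75 and 10.97. From 16 h on, the miR-124 values lay below all 7 control values. The gene was lower by 1.33-fold (8 h), 2.93-fold (16 h), 8.47-fold (24 h), 8.14-fold (32 h), 20.7-fold (72 h) and 5.99-fold (120 h). The smaller ratio at 120 h came with higher levels than at 72 h in both transfections, by 3.01 on the log2 scale with miR-124 and 1.22 with control. Its mean log2 ratio was −2.55 ± 0.37 in the middle and −3.48 ± 0.45 in the late window.

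LOXL2, a relative of LOX that also acts on basement membrane collagen, had levels of 6.45, 6.70, 6.47, 6.65, 6.77, 7.27 and 8.30 with miR-124 and 6.35, 6.46, 6.50, 6.69, 6.78, 6.77 and 6.96 with control. The pairs were alike up to 32 h, and the miR-124 values at 72 and 120 h were the highest of all 14 arrays. The mean ratio was −0.03 ± 0.14 in the middle and 0.92 ± 0.17 in the late window, 1.89-fold higher.

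**Figure D2:**
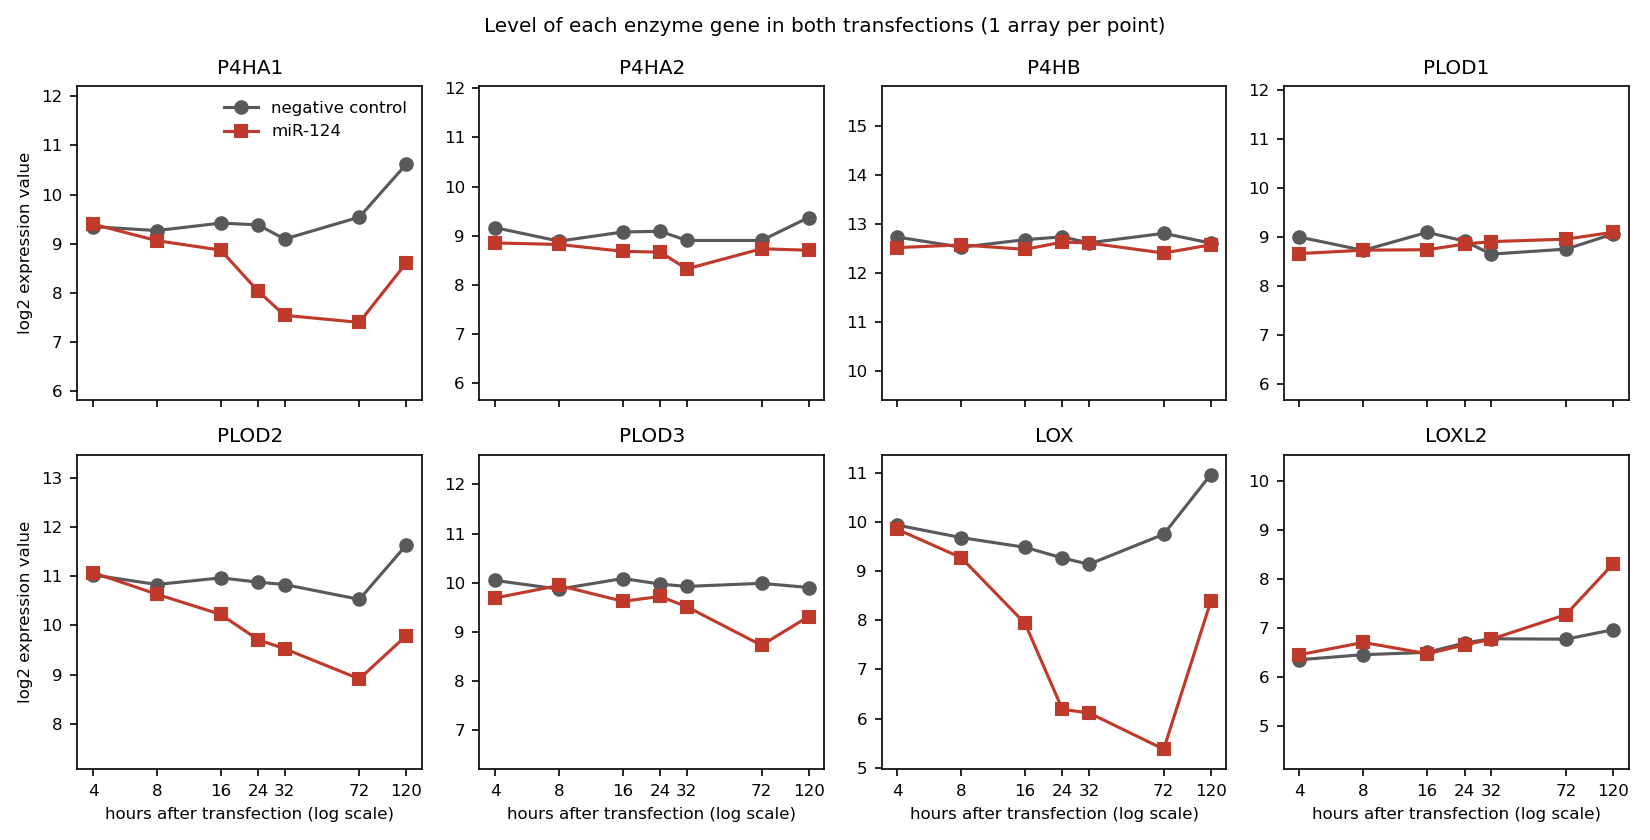
Log2 expression value of the 8 enzyme genes, on the probe set of highest mean, against hours after transfection on a log axis, with 1 array per point, grey circles for the negative control and red squares for miR-124; every panel spans the same number of log2 units. The arms part in P4HA1, PLOD2 and LOX from 16 h on, whereas PLOD1 and P4HB overlap.

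Probe sets of one gene did not always move alike, and 11 of the 19 were not those of highest mean. The second LOX probe set had ratios of −0.19, −0.09, −0.39, −1.30, −1.93, −3.32 and −2.62, and the third had 0.09, −0.01, −0.19, −0.64, −0.86, −0.52 and −2.04. All 3 were lower with miR-124 from 16 h on, but the mean middle ratio ran from −2.55 through −1.21 to −0.56. From 72 to 120 h the third had a log2 change of −0.18 with miR-124 and 1.34 with control. The size and the time of the lowest LOX ratio thus depend on the probe set read.

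Both PLOD2 probe sets gave the same course, with the other at −0.25, −0.36, −0.67, −1.01, −1.22, −1.72 and −1.98. For P4HA1 the other probe set had a mean log2 level of 3.75, below the filter, and ratios between −0.24 and 0.16. The higher late level of LOXL2 was on 1 of its 4 probe sets. The others had late ratios of 0.15, −0.04 and 0.08, so the higher LOXL2 level was read from the probe set of highest mean alone. For P4HB the other probe sets were further below control than the one of highest mean, at −0.43 and −0.26 in the middle and −0.69 and −0.46 in the late window. A second P4HA2 probe set had 0.21 at 4 h, and −0.41 in the middle and −0.47 in the late window. The third, with a mean log2 level of 4.93, below the filter, had −0.02 and −0.07. Which transcripts each probe set reads was not tested.

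**Figure D3:**
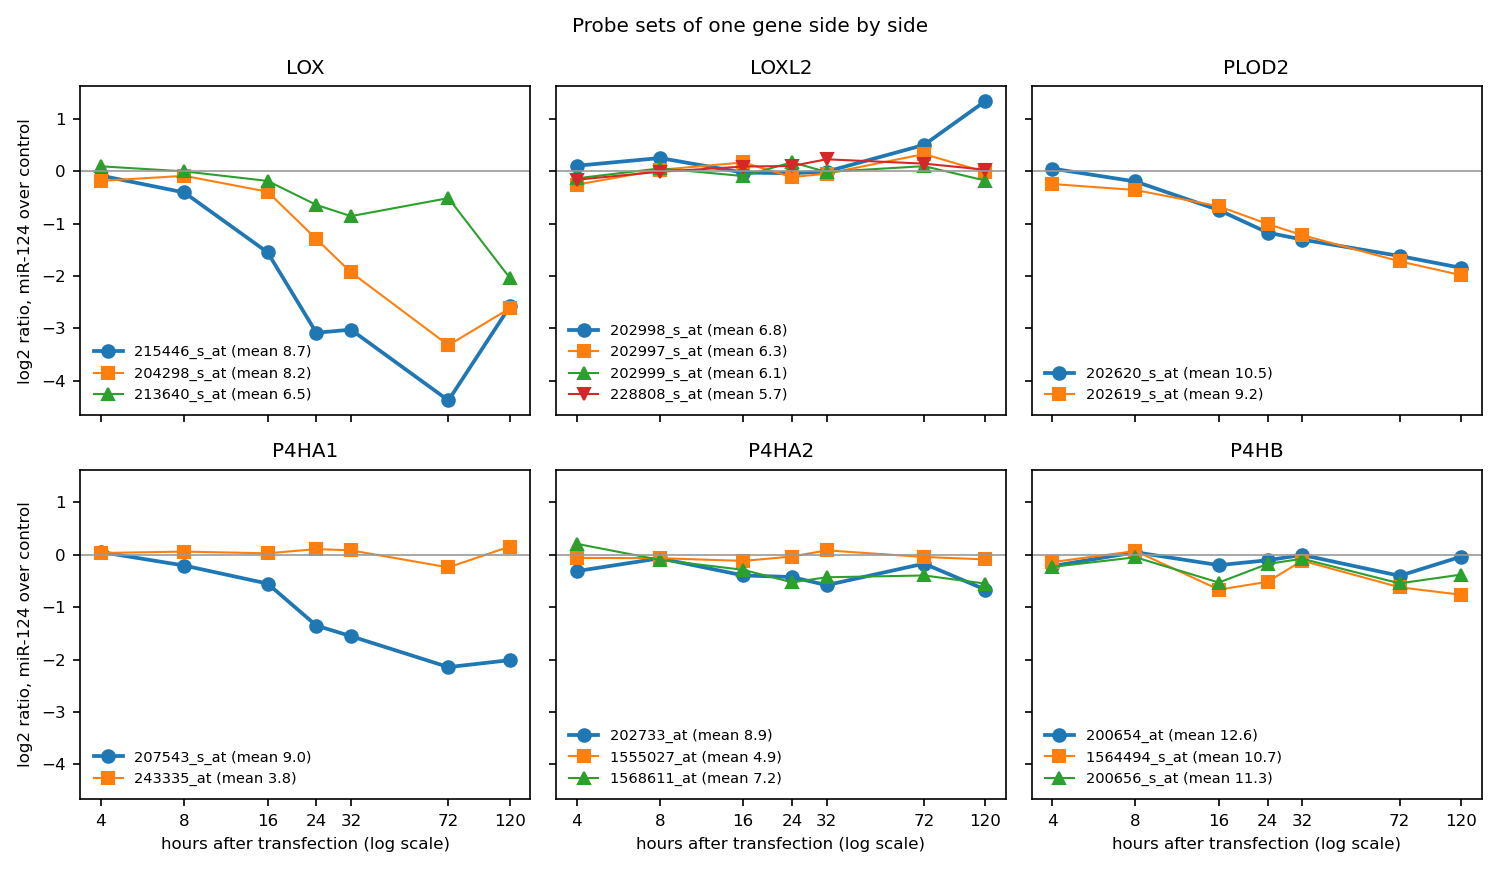
Log2 ratio of miR-124 over negative control against hours after transfection (log axis) for every probe set of the 6 enzyme genes that have more than 1, with the probe set of highest mean drawn thick and the mean log2 level over 14 arrays in the key. The PLOD2 probe sets run together, those of LOX part between 16 and 72 h, and 1 of the 4 LOXL2 probe sets goes up late.

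Over the group, the number of genes with a lower value in the miR-124 array than in its control was 5, 4, 8, 8, 7, 6 and 6 of 8 at the 7 times. At least 2-fold lower were 1 of 8 at 16 h (LOX), 3 at 24 h and 3 at 32 h (LOX, PLOD2 and P4HA1), 4 at 72 h (with PLOD3) and 3 at 120 h. Among all 13128 genes tested, the shares were 0.495%, 1.44%, 1.87%, 5.93% and 1.17% from 16 to 120 h. The median log2 ratio of the 8 genes was −0.15, −0.03, −0.43, −0.34, −0.50, −0.83 and −0.63 in the order of times, against medians between −0.02 and 0.05 over all tested genes. At 4 and 8 h, where 5 and 4 of 8 were lower, the medians over all tested genes were −0.02 and 0.02. The share of tested genes below control was not counted at any time. It thus cannot be set beside the counts of lower values.

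**Figure D4:**
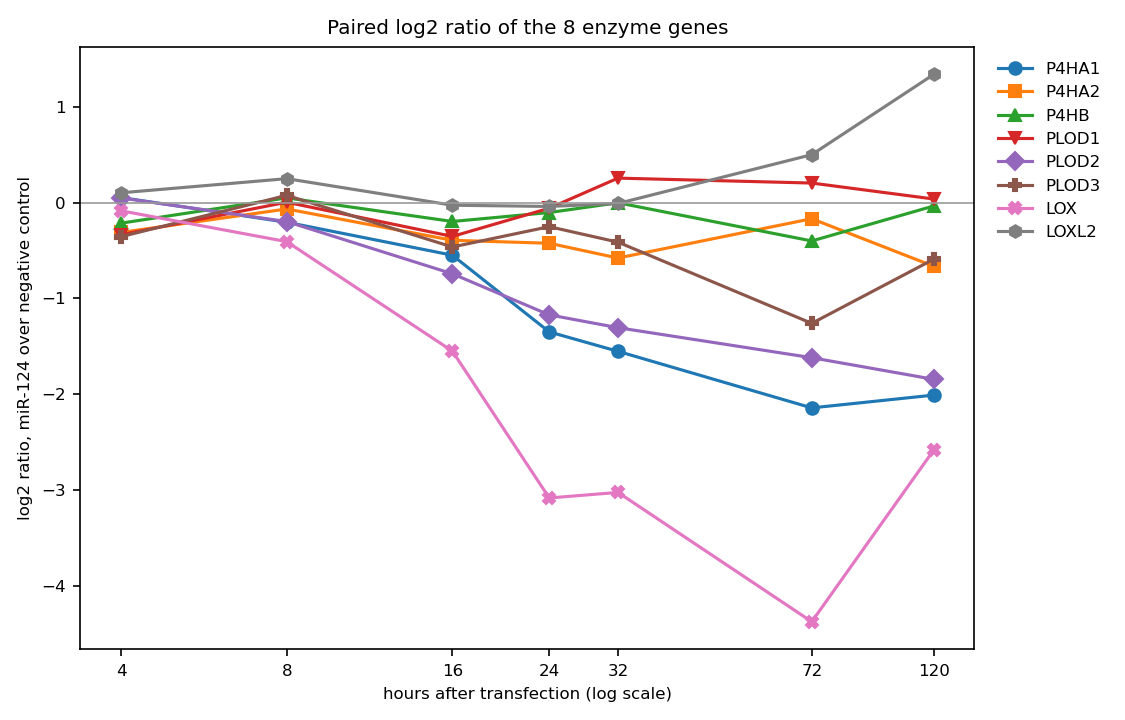
Log2 ratio of miR-124 over the negative control of the same time for the 8 enzyme genes, on the probe set of highest mean, against hours after transfection on a log axis, with 1 pair of arrays per point. LOX reaches −4.37 at 72 h, PLOD2 and P4HA1 run side by side to about the same ratio, and LOXL2 reaches 1.34 at 120 h.

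How the 8 genes change over time without miR-124 was read from the 7 control arrays alone, as a slope per doubling of time. LOXL2 rose, by 0.12 ± 0.02 log2 units per doubling (limma adjusted p = 0.0158), and no other of the 8 passed. Of all tested genes 2.71% rose and 5.49% fell. The LOXL2 call was lost without the 4 h array (0.13 per doubling, adjusted p = 0.0507), and its other probe sets had slopes of 0.01, 0.01 and −0.02 (adjusted p from 0.772 to 0.906). P4HA1 had a slope of 0.19 ± 0.08 (adjusted p = 0.159), which passed when time was taken as linear (adjusted p = 0.00867). LOX had 0.13 ± 0.11 (adjusted p = 0.483) and PLOD2 had 0.05 ± 0.07 (adjusted p = 0.682). Without the 120 h array the slope of LOX was −0.10, that of PLOD2 −0.09 and that of P4HA2 −0.04, all opposite in sign, and that of P4HA1 was 0.03 (adjusted p from 0.118 to 0.769). The slopes of PLOD1, PLOD3, P4HA2 and P4HB lay between −0.01 and 0.02, with adjusted p from 0.707 to 0.961. The control arrays are also the denominators of the ratios above, some of which were known when the group was chosen. The slopes are therefore not independent of that choice, and their p-values serve as a description.

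The largest change of LOX, PLOD2 and P4HA1 between neighbouring control times came in the last interval. From 72 to 120 h their control levels went up 2.32-fold, 2.16-fold and 2.12-fold, and 0.906% of all tested genes went up at least 2-fold between these arrays. With miR-124 the same interval brought LOX up 8.04-fold, P4HA1 2.32-fold, LOXL2 2.04-fold and PLOD2 1.84-fold, where 1.59% of tested genes went up at least 2-fold. The miR-124 value of LOX at 72 h, 5.38, lay below the filter level of 6.19, and its other probe sets changed by 2.17 and −0.18 on the log2 scale in that interval. Each interval compares 1 array with 1 array and has no test.

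Other hypoxia-inducible genes were set beside the enzymes in this interval, again with no test. All 13 with a probe set had a higher control level at 120 h than at 72 h, 5 of them at least 2-fold (BNIP3L, NDRG1, PDK1, ANKRD37 and ALDOC), with a median log2 change of 0.68 and a range from 0.09 to 2.26. BNIP3L, a mitophagy receptor, changed most, by 2.26, and NDRG1, a stress-response gene, by 1.56. With miR-124, 6 of the 13 were higher and none reached 2-fold, and the median was −0.06 with a range from −0.43 to 0.43. LOX, P4HA1 and PLOD2 thus had higher values at 120 h in both transfections. Of all 13128 tested genes, 6219 were higher at 120 h in the control and 6663 with miR-124. The 6 of 13 with miR-124 lay near that share. The 8 enzymes had medians of 0.39 in the control and 0.73 with miR-124, and all tested genes of −0.01 and 0.00. Oxygen in the cultures is not given in the labels, and its part was not tested.

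**Figure D5:**
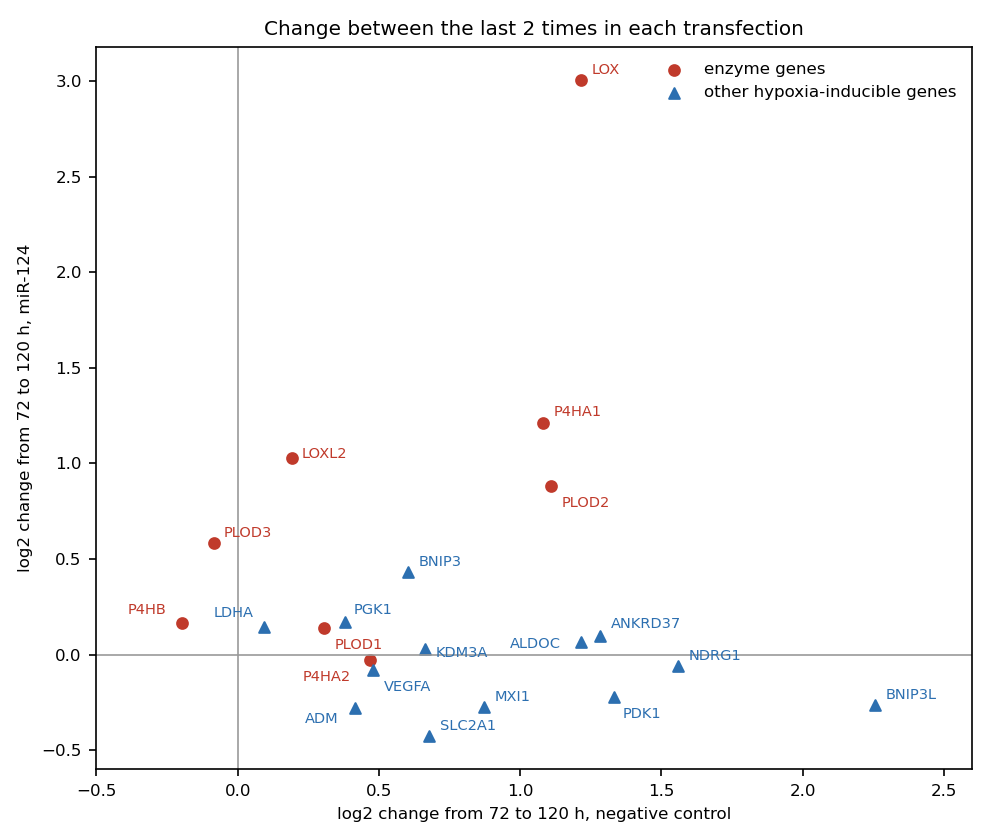
Log2 change from 72 to 120 h in the negative control (x axis) and with miR-124 (y axis) for the 8 enzyme genes (circles) and 13 other hypoxia-inducible genes (triangles), with 1 array per time and transfection. LOX, P4HA1 and PLOD2 lie high on both axes, while the triangles spread along the x axis and stay between −0.43 and 0.43 on the y axis.

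Genes whose 7 ratios ran closest to a member were found by the root mean square difference of the ratios over the 7 times, in log2 units, for the members whose ratios varied by an SD of at least 0.3. P4HA1 and PLOD2 were close to each other: PLOD2 was the nearest of all tested genes to P4HA1 (0.248), followed by SLC17A5 (0.278) and SMAD9 (0.339). Nearest to PLOD2 were EFNA1 (0.128), DRAM2 (0.180) and SMAD9 (0.209), with P4HA1 at rank 4. Nearest to LOX were CD164 (0.617), SUCLG2 (0.734) and ATP6V0E1 (0.735), with P4HA1 at rank 30. The difference grows with the size of the ratios, so its values cannot be compared between members. For PLOD3 they were TMEM209 (0.082), FAM117A (0.093) and AKT2 (0.122), and for LOXL2 LOC728392 (0.144), SMAD7 (0.168) and LTBP1 (0.170). All genes share the same 14 arrays, so a small difference is a description of these arrays.

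The rest of the collagen pathway was read from lists written from general knowledge. In the fit over all genes with time as a block (limma, Benjamini-Hochberg adjusted p under 0.05), no gene passed in the early window of 4 and 8 h (0.0% of those tested, with 163 at an unadjusted p under 0.05). The share of all genes tested that passed was 4.36% lower and 3.47% higher in the middle window, and 12.6% lower and 16.5% higher in the late window. Of 69 tested genes on 7 lists, 4 passed in the middle window (2 lower, 2 higher), near the share over all genes, and 31 in the late window (19 lower, 12 higher). Those counts were 0 and 23 without the 24 h pair, 1 and 24 without the 32 h pair, 2 and 25 without the 4 h pair and the same without the 8 h pair. They were 10 and 19 without the 72 h pair and 10 and 38 without the 120 h pair. Fitted on the arrays of its own window alone, the late window had 5 (2 lower, 3 higher). In the control course 3 of the 69 fell and 2 rose, with 0 called without the 8 h array, 2 without 24 h, 4 without 32 h and 1 without any other.

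Hydroxylase partners and collagen chaperones had 4 lower and 1 higher of 11 tested in the late window and none in the middle, with a late median of −0.10 against −0.01 for all tested genes. FKBP14, a proline isomerase, was lower with miR-124 by 1.11 ± 0.24 (limma adjusted p = 0.0117). PPIB, also a proline isomerase, was lower by 0.71 ± 0.17 (adjusted p = 0.0168). Without the 72 h pair they stood at −0.64 (adjusted p = 0.0928) and −0.29 (adjusted p = 0.0933). CRTAP, which joins PPIB in the prolyl 3-hydroxylase complex, was lower by 0.64 ± 0.08 (adjusted p = 0.00119). Of its other probe sets 3 also passed, at −0.94, −0.35 and −0.41, and 1 stood at 0.053. The other probe sets of FKBP14 (−1.25 and −1.37) and PPIB (−1.06) were lower too. In the middle window FKBP14 had −0.65 ± 0.20 (limma adjusted p = 0.0962). Its other probe sets passed there, at −0.70 (adjusted p = 0.0223) and −0.82 (adjusted p = 0.0131).

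Of the other lysyl oxidases and their helpers 2 of 8 tested were lower in both windows and none higher, with medians of −0.05 and 0.02. SLC31A1, the copper importer, was lower with miR-124 by 1.56 ± 0.12 in the middle (adjusted p = 0.00272) and by 1.60 ± 0.14 in the late window (adjusted p = 0.000352). SPARC, a collagen-binding matrix protein, was lower by 0.48 ± 0.07 (adjusted p = 0.0087) and 0.95 ± 0.09 (adjusted p = 0.000389). Other SLC31A1 probe sets had −0.65 (adjusted p = 0.0977) and −0.82 (adjusted p = 0.0109) in the middle window, and another of SPARC had −0.38 and −0.36 (adjusted p = 0.0599 and 0.058). Both middle calls were lost without the 24 h pair (adjusted p = 0.0742 for SLC31A1 and 0.122 for SPARC), and that of SPARC also without the 32 h pair (adjusted p = 0.101). BMP1, a protease that activates LOX, had 0.23 ± 0.08 in the late window (adjusted p = 0.0692), and 0.32 without the 120 h pair. Another probe set passed (0.88, adjusted p = 0.00617), while the rest did not, at 0.33, 0.59, 0.066, −0.015 and −0.063. LOXL1 and LOXL3 lay below the filter on low values, and LOXL4 did not pass.

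Collagen and elastin chains, the substrates of these enzymes, had 9 of 22 genes above the filter, of which 3 were higher and none lower in the late window (median 0.10). COL4A6 was higher with miR-124 by 2.48 ± 0.12 (adjusted p = 5.98e-05) and COL4A5 by 2.21 ± 0.15 (adjusted p = 0.000157), both chains of basement membrane collagen. COL7A1, the anchoring fibril chain, was higher by 1.07 ± 0.16 (adjusted p = 0.00252). COL4A5 also passed in the middle window (0.51 ± 0.12, adjusted p = 0.0482), and lost that call on leaving out any 1 of the 5 pairs up to 32 h (adjusted p from 0.0561 to 0.326). A second COL4A5 probe set had −0.29 in the late window, and other ones of COL4A6 had 0.12 and 0.95 (adjusted p = 0.00276 for the latter).

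Procollagen export and processing had 2 lower and 2 higher of 8 in the late window and none in the middle (late median 0.06). ADAMTS2, which removes the procollagen N-propeptide, was higher with miR-124 by 0.77 ± 0.11 (adjusted p = 0.00176), while 2 other probe sets of it stood at −0.17 and −0.19. PCOLCE, an enhancer of C-propeptide removal, was lower with miR-124 by 0.66 ± 0.09 (adjusted p = 0.00155, and 0.0724 without the time block). SEC24D, a coat protein of procollagen export, had −0.58 ± 0.17 in the middle window (limma adjusted p = 0.0972). That middle value passed without the 72 or 120 h pair (adjusted p = 0.00486). In the late window SEC24D was lower with miR-124 by 0.76 ± 0.21 (adjusted p = 0.032). Other SEC24D probe sets stood at −0.15 and −0.019 in the middle and at −0.011 and 0.13 in the late window, and did not pass. The SEC24D call was lost on leaving out the 4, 8, 24, 32 or 72 h pair (adjusted p from 0.0519 to 0.293), with −0.26 without 72 h.

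The disulfide isomerase family that P4HB belongs to had 7 lower and 1 higher of 13 in the late window and none in the middle, with a late median of −0.37, where 12.6% of all tested genes were lower and 16.5% higher. Examples are TMX1 (−1.10 ± 0.28, adjusted p = 0.0215), PDIA4 (−0.83 ± 0.13, adjusted p = 0.00277) and ERP29 (−0.64 ± 0.10, adjusted p = 0.00277). TMX1 had −0.50 in the late window without the 72 h pair. In the middle window it had −0.91 ± 0.23 (limma adjusted p = 0.0527), and passed without the 72 or 120 h pair (adjusted p = 0.00384).

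Oxygen-sensing hydroxylases and HIF subunits had 2 lower and 3 higher of 7 in the late window and none in the middle. EGLN1, the main hydroxylase of HIF, was higher with miR-124 by 0.60 ± 0.09 (adjusted p = 0.00278) and HIF1A by 0.42 ± 0.08 (adjusted p = 0.0061). EPAS1, the HIF-2 alpha subunit, was lower by 0.76 ± 0.21 (adjusted p = 0.0311). The EPAS1 call was lost on leaving out any pair but that of 120 h (adjusted p from 0.0501 to 0.241), with −0.22 without 72 h. The EGLN1 call was lost with the mean of its probe sets (0.18, adjusted p = 0.117).

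The hypoxia-inducible list had 1 of 13 higher in the middle and 2 lower and 2 higher in the late window, with a median ratio of 0.83 at 72 h and −0.27 at 120 h. VEGFA, the vessel growth factor, was higher with miR-124 by 0.50 ± 0.12 in the middle (adjusted p = 0.0466) and 0.70 ± 0.15 in the late window (adjusted p = 0.00975). Its middle call was lost on leaving out any 1 of the 5 pairs up to 32 h (adjusted p from 0.0568 to 0.333) and its late call without the 72 h pair (0.42, adjusted p = 0.0716). The mean of its probe sets was 0.19 and 0.30. BNIP3, a mitophagy receptor, was lower with miR-124 in the late window by 0.68 ± 0.12 (adjusted p = 0.00446). SLC2A1, the glucose carrier, had 0.60 ± 0.22 (adjusted p = 0.079), and 1.15 without the 120 h pair (adjusted p = 0.000355).

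Hepatocyte markers fitted the label of the line, with a list mean per array from 12.8 to 13.2 with miR-124 and from 12.8 to 13.3 with control over 8 genes, of which 1 was lower in the late window (FGB, −0.46, and −0.34 without the 72 h pair with adjusted p = 0.05). The fibroblast list of 7 genes, cells that make much collagen, had gene means from 3.55 to 8.44 and list means from 6.08 to 6.34 and from 6.12 to 6.27, and none of its 5 tested genes passed in any window. Blood cell markers (3 genes) had list means from 5.94 to 6.78 with miR-124 against 5.77 to 6.18, with CD3D higher in the late window (1.44), and endothelial markers (3 genes) had 6.28 to 6.54 against 6.26 to 6.44. PECAM1, an endothelial marker, was higher in the late window (0.46), a call lost without the 72 h pair (0.28, adjusted p = 0.147). The 3′ minus the 5′ probe set signal, 1 measure of RNA quality, differed between the transfections. For ACTB it was larger with miR-124 in 7 of 7 pairs (0.351 to 0.561, against 0.102 to 0.348), though nearly equal at 4 h. For GAPDH it was larger in 6 of 7 pairs. The part of these values in the enzyme ratios was not tested.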

How the data were processed

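Total RNA from HepG2 was labelled with biotin and read on one-colour arrays. The authors deposited 1 log2 value for each probe set and array. The submitters' processing notes name RMA, whose version is not given in the sources used here. RMA makes the distributions of the arrays alike, so a shift in the total messenger RNA of a cell is hidden. The values ran from 2.93 to 14.4.

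Of 54675 probe sets (62 of them controls), 41091 had 1 gene symbol in the platform annotation, 1801 several and 11721 none listed. Each gene was read from its probe set of highest mean, and the 13128 genes above 6.19, the median of all probe set means, were tested. Limma 3.58.1 in R 4.3.3 (lmFit and eBayes, two-sided, Benjamini-Hochberg) fitted the ratio in 3 windows with time as a block, leaving 4 residual degrees of freedom, and a slope per doubling of time over 7 control arrays, leaving 5. The window fit shares 1 spread per gene among windows. Arrays of one time were paired by their labels, and their deviations correlated at 0.205 to 0.48, above 0.1 in all 7 pairs. No depth exists for arrays, whose number limits precision.

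Named genes are the 8 enzymes, the 3 tested genes of each list with the largest change in the middle or late window, and the 3 nearest to each enzyme whose ratios vary. Genes called by name in the 72 to 120 h comparison are those at least 2-fold higher in the control. LOXL1, LOXL3 and LOXL4 were named after their values were seen. The enzymes and the lists were chosen with earlier results of these data known. Alternatives left out each pair and changed probe set choice, filter, centring, block and time scale. Promoter sequences are from RefSeq.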

Additional observations from a re-analysis of the deposited data

Results flagged for a closer look

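The miR-124 array at 4 h had a mean log2 signal of 11.05 on the control probe sets for 18S ribosomal RNA. The 7 negative control arrays had 7.31 to 9.2 and the other miR-124 arrays 7.6 to 8.28, so the value lay above all of them. These probe sets are outside the gene comparisons. At this time the 8 enzymes had a median log2 ratio of −0.15. The part of this array's signal in that ratio was not tested.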

How the results depend on the processing

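Leaving out 1 time in turn, the middle window had 0 to 2197 called genes (1028 with all pairs, 0 without 24 h, 12 without 32 h, 520 without 4 or 8 h, 639 without 16 h, 2197 without 72 or 120 h), the late window 2862 to 4894 (3822 with all), the control course 229 to 1116 (1077 with all) and the early window 0 throughout. Without 120 h the late calls were 2289 higher and 2605 lower, against 2163 and 1659. Fitted on its own arrays, the middle window had 2163 and the late window 550. With every probe set the late window had 6231 and the control course 1680. The course had 2858 with linear time and 2855 over the 7 miR-124 arrays. With no replicate block (time not a block), the middle window had 866 and the late window 3794.

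For the enzymes, 22 window means moved beyond the SD of the pairs on another probe set and 11 did not. Leaving out 1 pair gave late means of −0.59 or −1.26 for PLOD3, −0.17 or −0.67 for P4HA2, −0.04 or −0.40 for P4HB, −2.58 or −4.37 for LOX and 0.50 or 1.34 for LOXL2. Of the control slopes 81 kept call and sign, 4 lost the call, 1 gained it, 12 uncalled ones turned sign and a called one turned (LOXL2, −0.015 on another probe set). Among named list genes, 673 alternatives kept call and sign, 68 lost the call, 32 gained it, 29 uncalled ones turned sign and 12 called ones turned. These 12 were other probe sets: late values of CRTAP (0.053), SEC24D (0.13), ADAMTS2 (−0.17 and −0.19), COL4A5 (−0.29, and −0.044 in the middle), EGLN1 (−0.11 and −0.017), EPAS1 (0.064) and PECAM1 (−0.16, −0.23 and −0.070). The cause was not tested. Each time has 1 array per transfection, so errors hold no replicate spread.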
